A study of Mus musculus with 11 samples.

Results

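The mitosis and cytokinesis genes described here are 57 genes of the mitotic spindle, the kinetochore, condensin and the cleavage furrow, listed by name and known role, with earlier results of these data in view. Cyclins, Cdk kinases and DNA replication genes were left out of the choice. The table lists 50600 genes, of which 15808 passed the filter on low counts and were tested, and all 57 members were among them. The members were placed by known role into 9 groups, from the kinases that start mitosis to the proteins that divide the cytoplasm.

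The study constricted the pulmonary artery of newborn C57BL/6 mice, an operation called pulmonary artery banding (PAB), to raise the pressure load on the right ventricle. RNA-seq was done on hearts at postnatal day 3 (P3) and postnatal day 7 (P7). There were 3 libraries each of P3 sham, P3 PAB and P7 sham hearts and 2 libraries of P7 PAB hearts. Banding or a sham operation, in which the chest was opened and no band was tied, took place on the day of birth in every group. The labels name the tissue as heart and the methods as ventricles, so that the loaded right ventricle and the left ventricle were measured together, with all their cell types. The labels do not say whether each library is a separate animal, and the p-values below then measure only the spread between these libraries.

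A dividing cell condenses its chromosomes, attaches each sister chromatid to spindle microtubules through a kinetochore, separates the sisters when the anaphase-promoting complex destroys securin and cyclin B, and then divides its cytoplasm by a contractile ring. Transcripts for most of these proteins accumulate in the G2 and M phases and are low in cells that do not divide. In rodents, cardiomyocytes leave the cell cycle in the days after birth, many of them after a mitosis without cytokinesis that leaves 2 nuclei in the cell. The members therefore report on dividing cells of any type in the heart.

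Genes of this kind are known to be controlled through 2 short promoter motifs, the CCAAT box, bound by NF-Y, and the CHR, bound by the DREAM and MuvB complexes. To show what the members share beyond their role, RefSeq promoters (GRCm38.p6, 250 bases before to 50 bases after the transcript start) were searched on both strands for CCAAT and for the CHR as TTTGAA or TTCGAA. The motifs CCAAT and TTTGAA can overlap by a base, and the second CHR form is its own reverse complement. A promoter was given for 49 of the 57 members. A CHR was found in 38 of these (77.6%), against 19.4% of all 27025 promoters, and a CCAAT box in 36 (73.5%), against 37.9%. Both motifs stood together in 33 member promoters (67.3%), against 7.70% of all promoters. In 33 members (67.3%) a CHR began within 50 bases of the transcript start, against 5.29% of all promoters. Of the related lists, other mitotic genes held both motifs in 15 of 46 promoters (32.6%) and DNA replication genes in 5 of 36 (13.9%). A match of letters is a description of the sequence and not a measured binding site.

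The 200 bases before the transcript start are shown for Mki67 and Top2a, the 2 members with the highest counts, and for Espl1 and Cdc20, which were among those that fell most with age. Capitals mark CCAAT boxes and CHR motifs on either strand. Each run is written 5′ to 3′ on the strand of the gene.
Mki67 (chr7:135716380-135716579, - strand): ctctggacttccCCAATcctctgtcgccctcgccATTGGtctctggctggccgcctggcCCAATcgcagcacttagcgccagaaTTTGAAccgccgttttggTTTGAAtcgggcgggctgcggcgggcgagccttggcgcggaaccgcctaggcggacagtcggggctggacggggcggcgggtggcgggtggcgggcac
Top2a (chr11:99024190-99024389, - strand): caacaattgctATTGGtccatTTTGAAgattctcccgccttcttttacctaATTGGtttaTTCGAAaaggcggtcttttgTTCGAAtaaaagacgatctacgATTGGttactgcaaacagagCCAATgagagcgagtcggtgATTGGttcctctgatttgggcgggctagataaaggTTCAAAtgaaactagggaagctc
Espl1 (chr15:102296093-102296292, + strand): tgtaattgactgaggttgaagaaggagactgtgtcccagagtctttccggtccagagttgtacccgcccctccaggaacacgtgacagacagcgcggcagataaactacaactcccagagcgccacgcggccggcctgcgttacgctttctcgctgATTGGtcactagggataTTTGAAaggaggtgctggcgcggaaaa
Cdc20 (chr4:118437344-118437543, - strand): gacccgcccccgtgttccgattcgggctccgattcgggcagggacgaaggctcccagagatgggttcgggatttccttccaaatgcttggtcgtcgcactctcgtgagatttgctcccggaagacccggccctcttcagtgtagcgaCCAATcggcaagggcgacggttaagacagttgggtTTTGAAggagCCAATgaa
The Mki67 window held 3 CCAAT boxes followed by 2 CHR motifs, and Top2a held 5 boxes and 4 CHR motifs. Espl1 had 1 of each and Cdc20 had 2 boxes around 1 CHR. Neither motif was found in the sequences given for Pttg1, Melk, Birc5, Mad2l1, Nuf2, Nusap1, Ncaph and Kif18a. The RefSeq start of Pttg1 lies 270 bases downstream of the outermost start of the gene in GENCODE M21, so that its sequence is inside that gene and the bases before the outer start were not searched. In 10 of the 49 members the RefSeq start lies more than 50 bases downstream in this way.

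The depth was between 19274045 and 26820228 counts per library. All values below are CPM, the count per 1000000 counted reads after TMM scaling, and 3 counts were worth 0.114 to 0.148 CPM. The lowest count of any member in any library was 88, so that no member was near that floor. Xist was above Ddx3y in P3 sham library 1 and in all P7 sham libraries, and Ddx3y was above Xist in the other 7 libraries, P7 PAB among them, so that sex and PAB cannot be told apart at P7. Within a group this class varies in P3 sham hearts alone. A term for it in a fit thus rests on P3 sham library 1 and does not separate sex from PAB at P7. In sham hearts the class also differs with age, since P3 sham library 1 alone among the P3 libraries is of the P7 sham class. Mitochondrial genes took 11.4 to 13.1% of counts at P3, 21.1 to 22.2% in P7 sham and at most 18.1% in P7 PAB hearts. Cardiomyocyte markers summed to 67232 to 82401 CPM per library, so that the tissue was heart as labelled, while thymocyte and T cell markers summed to 2.98 to 5.72 CPM. In whole tissue, fewer dividing cells and less RNA per dividing cell cannot be told apart. The exons of 16 members overlap those of another gene in GENCODE M21, and since the strand setting of the counting is not stated, reads of both genes cannot be told apart there. Among these are Cdc25c with Gm3550 on the opposite strand (623 bases), Ube2c with Tnnc2, Kif20a with Cdc23, Prc1 with Rccd1 and Ncapg with Lcorl.

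**Figure D1:**
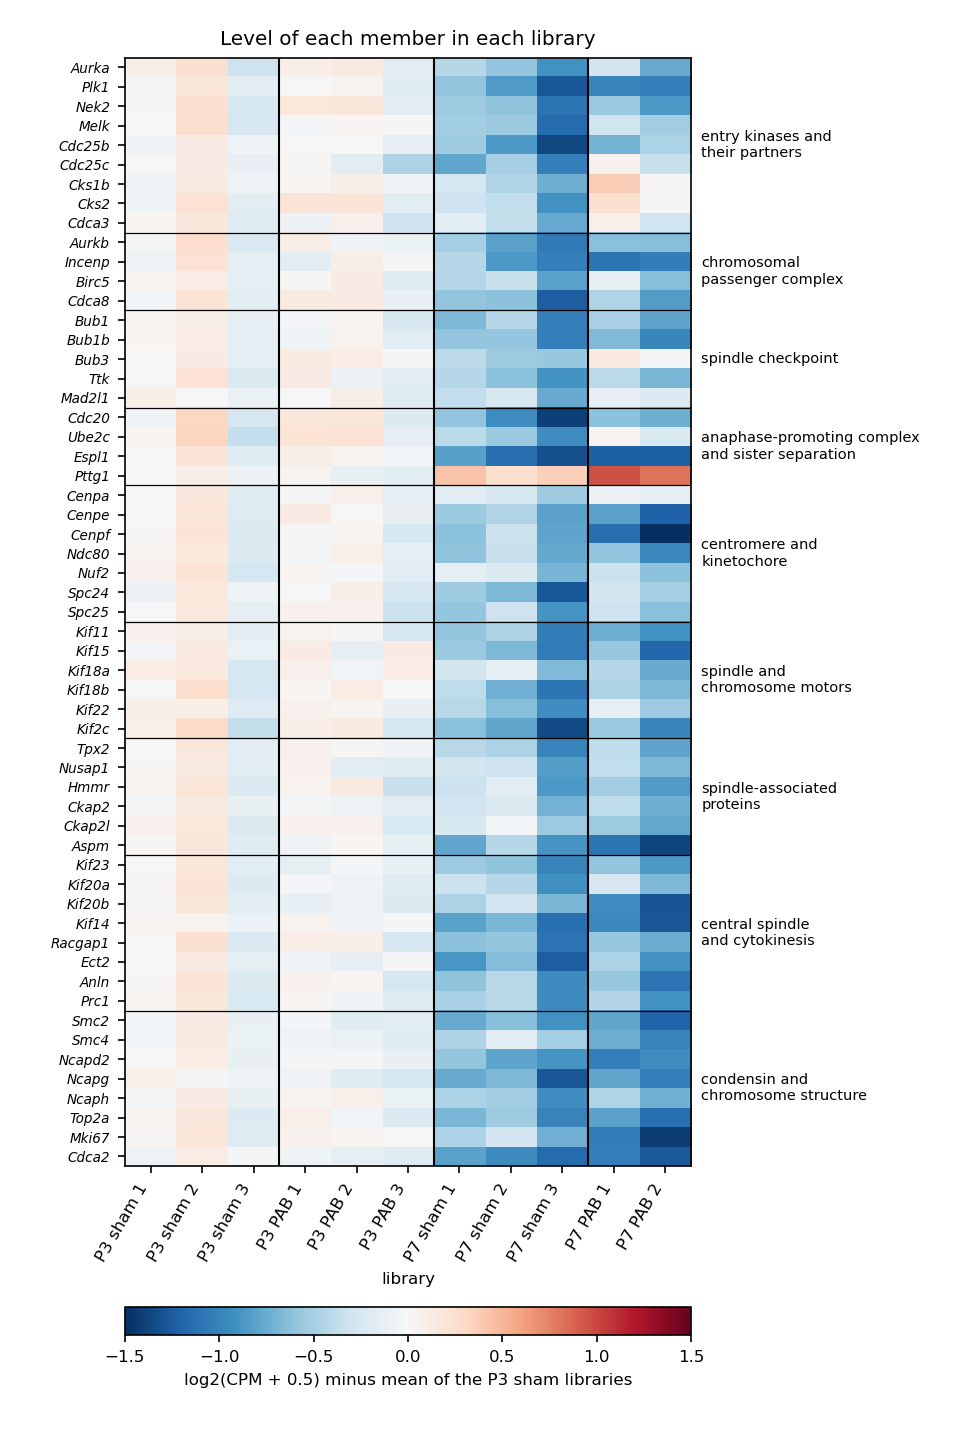
Level of each of the 57 members (rows, by role) in each of the 11 libraries (columns), as log2(CPM + 0.5) minus the mean of the 3 P3 sham libraries, with red above and blue below that mean. The P7 columns are blue for nearly all members, Pttg1 is red in all 5 P7 libraries, and P7 sham library 3 is the darkest of the P7 sham columns.

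Per length of exon, the members ranged over a mean of 0.727 to 43.0 CPM per kb, with a median of 7.75 CPM per kb. Cks2, which binds the Cdk kinases and helps them engage their substrates, had the highest level at 43.0 CPM per kb. As a mean of the 4 groups, Mki67, which coats mitotic chromosomes and keeps them apart, followed with 24.5 CPM per kb, and Cdc20, an activator of the anaphase-promoting complex, with 24.4 CPM per kb. The condensin subunit Smc4 had 22.0 CPM per kb and Cks1b had 19.5 CPM per kb. Cks2 was the highest in each group and Mki67 followed it in 3 of the 4, but in P7 PAB hearts Mki67 was at 13.2 CPM per kb, below Cks1b at 23.2 and Cdc20 at 19.1 CPM per kb among others. At the other end were 2 kinesins and a phosphatase, Kif18a at 0.727, Kif14 at 1.15 and Cdc25c at 1.37 CPM per kb.

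The members moved together from library to library within a group. P3 sham library 2 was the highest of its group for 55 of 57 members and P3 sham library 3 the lowest for 55. P3 PAB library 3 was the lowest of its group for 50 members, P7 sham library 3 for 56, and P7 PAB library 2 lay below library 1 for 53. The median member lay 0.29 below its group mean on the log2 scale in P7 sham library 3 and 0.15 below it in P7 PAB library 2. The coefficient of variation of a member within P7 sham hearts had a median of 18.5%, against 12.2% in P3 sham hearts. The 57 members are therefore not 57 separate measurements, and a count of members moves with single libraries. Erythroid markers also differed between libraries of 1 group. They summed to 4166, 3898 and 2571 CPM in P3 sham, 6532, 4239 and 2559 CPM in P3 PAB, 3323, 2455 and 2571 CPM in P7 sham, and 4352 and 3881 CPM in P7 PAB hearts. The library with the lowest erythroid sum was the one with the lowest members in P3 sham, P3 PAB and P7 PAB hearts but not in P7 sham hearts, and the part of erythroid cells in the members' levels was not tested.

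The comparison of P7 with P3 sham hearts covers normal postnatal growth, and the Xist and Y class also differs between these groups. Of 57 members, 38 fell and 0 rose in edgeR's quasi-likelihood test, where a call needs a difference of 1.5-fold or more with an adjusted p not above 0.05. Values that follow a gene's name with no unit, and the amounts by which genes fell, are log2 fold changes. Of all tested genes, 5.73% fell and 5.62% rose by the same rule. At an unadjusted p under 0.05, 56 members were lower and 1 was higher, and DESeq2 called 38 lower and 0 higher. The median member log2 fold change was -0.67, against 0.00 over all genes, and the median member kept 62.9% of its P3 level, within a range of 46.5 to 128%. In 50 members every P7 sham library lay below every P3 sham library, and in 1 every P7 library lay above, against 22.9% and 22.4% of all genes. Without P7 sham library 3 the count that fell was 23 and the median member was at -0.54. With a term for Xist and Y class, which rests on P3 sham library 1, 36 members fell, against 4.58% of all genes. The median member was then at -0.68, and Ube2c and Spc25 were not called.

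In the group of the kinases and phosphatases that start mitosis and their partners, 6 of 9 genes fell. Plk1, a kinase needed at several steps from mitotic entry to cytokinesis, had a log2 fold change of -0.91 ± 0.13 (SE), and Cdc25b, a phosphatase that activates Cdk1, had -0.91 ± 0.15. Nek2, a kinase of centrosome separation, Aurka, a kinase of spindle assembly, and Melk fell by 0.76, 0.67 and 0.76. Cdc25c, a second phosphatase of this family, was at 8.07, 8.75 and 7.31 CPM in P3 sham, 8.09, 7.06 and 5.69 CPM in P3 PAB, 4.48, 5.54 and 3.69 CPM in P7 sham, and 8.43 and 6.26 CPM in P7 PAB hearts. In sham hearts its P3 and P7 libraries did not overlap, with a log2 fold change of -0.82 ± 0.17 and an adjusted p of 0.00185. The other 3 of the group, Cks1b, Cks2 and Cdca3, were at -0.49, -0.53 and -0.42 and did not reach the fold threshold.

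The chromosomal passenger complex corrects wrong attachments at the centromere and later moves to the central spindle, where it is needed for cytokinesis. The study stained the protein of its kinase, Aurkb, in cardiomyocytes as a mark of cytokinesis. By the paper's introduction this staining, and that for Ki67, belongs to its rat model. Both gave more positive cardiomyocytes in PAB hearts at P3 and P7, which is a count of cells and not of RNA. In the mouse hearts here Aurkb was at 27.4, 33.6 and 23.9 CPM in P3 sham, 30.1, 26.97 and 26.2 CPM in P3 PAB, 19.5, 15.9 and 13.2 CPM in P7 sham, and 17.9 and 17.8 CPM in P7 PAB hearts. All 3 P7 sham libraries lay below all P3 sham libraries, with a log2 fold change of -0.82 ± 0.13 and an adjusted p of 0.000335. The scaffold Incenp fell by 0.77 and Cdca8, the borealin subunit, by 0.81. Birc5 (survivin), the member of the complex with the highest level per length, was at 42.2, 44.7 and 37.5 CPM in P3 sham, 41.9, 44.9 and 36.4 CPM in P3 PAB, 30.6, 32.8 and 23.6 CPM in P7 sham, and 38.4 and 26.4 CPM in P7 PAB hearts. Its change of -0.52 ± 0.14 did not reach the fold threshold, although every P7 sham library lay below every P3 sham library.

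The spindle checkpoint holds anaphase until all kinetochores are attached. As a mean of the 4 groups, Bub1b (BubR1), an inhibitor of Cdc20, had the highest level per length of its 5 members. In P7 PAB hearts Bub3 was above it, with 8.49 against 8.05 CPM per kb. Bub1b was at 62.2, 66.01 and 55.3 CPM in P3 sham, 58.5, 63.2 and 54.7 CPM in P3 PAB, 40.3, 40.6 and 29.6 CPM in P7 sham, and 38.2 and 30.6 CPM in P7 PAB hearts. It fell by 0.74 on the log2 scale in sham hearts (adjusted p = 0.000253), and the kinases Bub1 and Ttk fell by 0.71 and 0.68. The checkpoint proteins Bub3 and Mad2l1 were at -0.51 and -0.46, under the fold threshold.

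The largest fall of any member with age in sham hearts was that of Espl1, separase, the protease that cleaves cohesin between sister chromatids. It was at 36.4, 41.6 and 31.8 CPM in P3 sham, 38.6, 37.5 and 35.3 CPM in P3 PAB, 20.4, 16.4 and 14.3 CPM in P7 sham, and 15.3 and 15.3 CPM in P7 PAB hearts. Its P7 sham level was 46.5% of the P3 level, with a log2 fold change of -1.11 ± 0.12 and an adjusted p of 8.45e-06. Cdc20 was at 54.6, 70.8 and 47.8 CPM in P3 sham, 64.01, 64.6 and 49.1 CPM in P3 PAB, 37.5, 29.5 and 21.3 CPM in P7 sham, and 37.2 and 34.1 CPM in P7 PAB hearts. Its libraries of different ages did not overlap in either operation group, and the log2 fold change in sham hearts was -0.98 ± 0.17 (adjusted p = 0.000657). Ube2c, the ubiquitin-conjugating enzyme of the anaphase-promoting complex, fell by 0.65.

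Pttg1, securin, the inhibitor that holds separase until anaphase, was the only member above 0 over age in sham hearts. It was at 20.05, 21.1 and 18.6 CPM in P3 sham, 20.5, 18.4 and 17.8 CPM in P3 PAB, 26.9, 23.7 and 25.7 CPM in P7 sham, and 39.0 and 35.3 CPM in P7 PAB hearts. Every P7 sham library lay above every P3 sham library and both P7 PAB libraries lay above all others. The log2 fold change in sham hearts was 0.35 ± 0.08 (adjusted p = 0.00492), which did not reach the fold threshold. Securin and its target separase lay at opposite ends of the 57 members in this comparison.

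Centromere and kinetochore genes fell in 4 of 7 cases. Cenpa, the histone that marks the centromere, was at 84.1, 94.5 and 73.6 CPM in P3 sham, 81.7, 87.9 and 75.4 CPM in P3 PAB, 74.9, 70.5 and 57.8 CPM in P7 sham, and 78.3 and 75.6 CPM in P7 PAB hearts. With -0.31 ± 0.10 it stood below Pttg1 and Ckap2l and above the other members, and P7 sham library 1 lay within the P3 sham range. Spc24 and Spc25, subunits of the NDC80 complex that grips microtubules, fell by 0.83 and 0.60, and Ndc80 itself fell by 0.60. The kinetochore motor Cenpe fell by 0.62. The NDC80 subunit Nuf2 was at -0.36 and the large kinetochore protein Cenpf at -0.58, neither called.

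Motors of the spindle and chromosomes fell in 5 of 6 cases. Kif11 (Eg5), which pushes the spindle poles apart, was at 85.2, 86.97 and 73.2 CPM in P3 sham, 84.3, 79.9 and 68.4 CPM in P3 PAB, 54.5, 59.2 and 39.6 CPM in P7 sham, and 49.04 and 43.3 CPM in P7 PAB hearts. Its ages did not overlap, and it fell by 0.68 in sham hearts (adjusted p = 0.000755). The microtubule depolymerase Kif2c fell by 0.95, Kif15 by 0.78, Kif18b by 0.74 and the chromosome motor Kif22 by 0.67, while Kif18a was at -0.39. A pseudogene is named after Kif22 in the annotation, and its reads may be split.

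Spindle-associated proteins fell in 2 of 6 cases, Tpx2, an activator of Aurora A, by 0.63 and the spindle pole protein Aspm by 0.70. Ckap2l had the highest level per length of the 6, at 59.9, 63.9 and 49.2 CPM in P3 sham, 60.2, 59.9 and 48.9 CPM in P3 PAB, 48.5, 55.5 and 39.1 CPM in P7 sham, and 39.3 and 33.4 CPM in P7 PAB hearts. P7 sham library 2, at 55.5 CPM, lay within the P3 sham range, and the log2 fold change of -0.28 ± 0.13 did not reach the threshold (adjusted p = 0.105). Ckap2, Nusap1 and Hmmr were at -0.40, -0.47 and -0.44.

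Central spindle and cytokinesis genes fell in 6 of 8 cases, with every P7 sham library below every P3 sham library for all 8. Kif20a, the kinesin that carries the passenger complex to the midzone, had the highest level per length and was at 65.6, 74.6 and 56.2 CPM in P3 sham, 63.7, 62.7 and 57.2 CPM in P3 PAB, 51.9, 48.2 and 34.2 CPM in P7 sham, and 54.7 and 40.6 CPM in P7 PAB hearts. At -0.55 ± 0.14 it was under the fold threshold. Ect2, the exchange factor that activates RhoA at the furrow, fell by 0.93 and Racgap1, its partner in the centralspindlin complex, by 0.77. Kif23, the centralspindlin motor, fell by 0.72, the ring scaffold Anln by 0.65, the microtubule bundler Prc1 by 0.62 and the kinesin Kif14 by 0.91. Kif20b was at -0.49.

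Condensin and chromosome genes fell in 6 of 8 cases. Cdca2, a phosphatase subunit that acts on chromatin at the end of mitosis, was at 23.7, 26.9 and 24.3 CPM in P3 sham, 23.8, 22.5 and 21.9 CPM in P3 PAB, 14.04, 12.7 and 10.9 CPM in P7 sham, and 11.97 and 10.2 CPM in P7 PAB hearts. It had the second largest fall of any member, -0.996 ± 0.097 (adjusted p = 4.32e-06). The condensin subunits Ncapd2, Smc2, Ncapg and Ncaph fell by 0.76, 0.78, 0.90 and 0.65, and the topoisomerase Top2a, which untangles sister chromatids, by 0.74. Smc4, at -0.37, and Mki67, at -0.49, did not reach the fold threshold, although every P7 sham library lay below every P3 sham library for both.

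The same comparison in PAB hearts used none of the same libraries. Of 57 members, 35 fell and 1 rose, against 8.20% and 9.50% of all genes, and the median member log2 fold change was -0.63. In 46 members every P7 PAB library lay below every P3 PAB library and in 1 every library lay above, against 30.7% and 32.0% of all genes. Without P7 PAB library 2 the count that fell was 21, and without P7 PAB library 1 it was 43. The members called lower in both operation groups numbered 28, and 11 were called in neither group in either direction. Another 10 were called in sham hearts alone, among them Aurka, Cdc25b, Cdc25c, Bub1 and Spc24, and 7 in PAB hearts alone, Cenpf, Kif18a, Hmmr, Ckap2l, Kif20b, Smc4 and Mki67, which is a count of calls and not a test of the difference. The member that rose was Pttg1, with 0.97 ± 0.09 (adjusted p = 1.9e-06), which was called in all 22 settings. Espl1 fell by 1.28, Cenpf by 1.28 and Mki67 by 1.26, and all 8 condensin and chromosome genes fell.

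**Figure D2:**
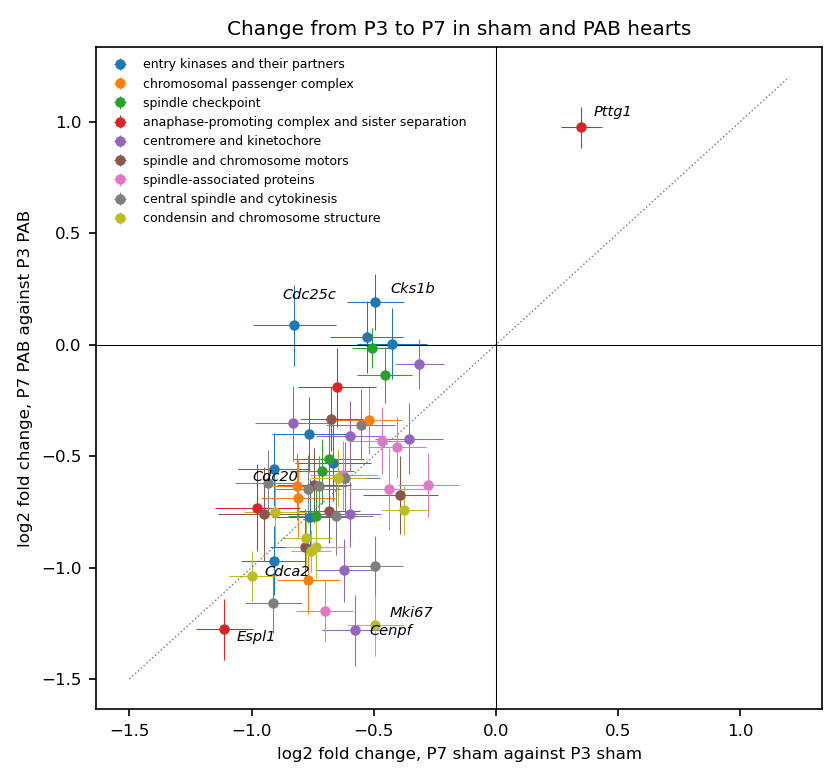
Log2 fold change from P3 to P7 in sham hearts (horizontal axis) and in PAB hearts (vertical axis) for the 57 members, coloured by role, with SE as bars and a dotted line of equal change. Most members lie below 0 on both axes, Pttg1 lies above 0 on both, and Cenpf and Mki67 lie well below the line of equal change.

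The effect of PAB was first asked at P3. No difference was detected in any member. Of 57 members 0 were higher and 0 lower in P3 PAB than in P3 sham hearts, in edgeR and in DESeq2 alike, and 0 had an unadjusted p under 0.05 in either direction. Of all genes 0.108% were higher and 0.0190% lower. The median member log2 fold change was -0.04, with a range of -0.22 to 0.08, and P3 PAB levels were 86.3 to 106% of P3 sham levels. No member had all PAB libraries above or below all sham libraries, against 8.65% and 8.02% of all genes. Mki67 was at 313, 352 and 272 CPM in P3 sham, 326, 320.2 and 311 CPM in P3 PAB, 225, 254 and 188 CPM in P7 sham, and 151 and 116 CPM in P7 PAB hearts. At P3 its log2 fold change was 0.03 ± 0.12, a difference under the spread between libraries, and that of Aurkb was -0.03 ± 0.13. The median of all members stayed between -0.13 and 0.04 when single libraries were left out, and was above 0 without P3 sham library 2 and without P3 PAB library 3.

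At P7 the summed level of the members overlapped between PAB and sham hearts, and single members differed in both directions. The members summed to 2193, 2249 and 1676 CPM in P7 sham and 2099 and 1729 CPM in P7 PAB hearts. The median member log2 fold change was 0.03, against 0.00 over all genes, with 29 members above 0 and 28 below. Of 57 members 3 were higher, against 9.63% of all genes, and 3 were lower, against 8.59%. All P7 PAB libraries lay above all P7 sham libraries for 10 members and below for 7, against 30.8% and 29.6% of all genes. Both shares of members are below those of all genes. Without P7 sham library 3 or without P7 PAB library 1 the count of higher members was 0, and without P7 sham library 1 or P7 PAB library 2 it was 6. The count of lower members was 6 without P7 PAB library 1 and 0 without P7 PAB library 2.

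The 3 higher members, a share under the 9.63% of all genes, were all of the group of entry kinases and their partners. Cks1b, a Cdk-binding protein that also acts in the destruction of the inhibitor p27, was at 21.8, 24.8 and 21.4 CPM in P3 sham, 23.0, 24.03 and 21.8 CPM in P3 PAB, 18.7, 16.4 and 13.5 CPM in P7 sham, and 29.3 and 22.96 CPM in P7 PAB hearts. Both P7 PAB libraries lay above all P7 sham libraries, with a log2 fold change of 0.70 ± 0.13 (adjusted p = 0.00047). Cks2 was at 29.5, 36.03 and 27.5 CPM in P3 sham, 35.3, 35.4 and 27.6 CPM in P3 PAB, 24.8, 23.9 and 16.2 CPM in P7 sham, and 36.4 and 30.5 CPM in P7 PAB hearts. It too did not overlap between the operation groups at P7, with 0.64 ± 0.17 (adjusted p = 0.00566). Cdc25c, whose levels are given above, had 0.70 ± 0.19 (adjusted p = 0.00786). In all 3 the P7 PAB mean was within the range of the P3 means or above it, and the P7 sham mean was the lowest of the 4 groups. In the fit with a term for Xist and Y class, which rests on P3 sham library 1, the values were 0.61 in Cks1b, 0.53 in Cks2 and 0.70 in Cdc25c, with adjusted p of 0.0640, 0.203 and 0.134 in edgeR, and none of the 3 was called. Reads of Cdc25c and Gm3550 cannot be told apart where their exons overlap.

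The 3 lower members were of different roles. Mki67, named above, was lower in both P7 PAB libraries than in any other library of the series, with a log2 fold change of -0.74 ± 0.13 (adjusted p = 0.000451) and means of 133 ± 24.9 CPM (SD, n = 2) in P7 PAB against 222 ± 33.2 CPM (SD, n = 3) in P7 sham hearts. Cenpf was at 101, 116 and 85.6 CPM in P3 sham, 101, 103 and 84.2 CPM in P3 PAB, 65.1, 79.8 and 57.7 CPM in P7 sham, and 45.3 and 33.6 CPM in P7 PAB hearts. The operation groups did not overlap at P7, with -0.77 ± 0.16 (adjusted p = 0.00106). Kif20b, a kinesin of the midzone, was at 26.8, 30.8 and 24.3 CPM in P3 sham, 24.9, 25.8 and 23.6 CPM in P3 PAB, 19.5, 22.2 and 16.8 CPM in P7 sham, and 13.97 and 10.8 CPM in P7 PAB hearts. It had -0.65 ± 0.14 (adjusted p = 0.00150), again without overlap. In the fit with the class term the values were -0.73 in Mki67, -0.77 in Cenpf and -0.69 in Kif20b, with adjusted p of 0.0385, 0.0561 and 0.0466 in edgeR, so that Cenpf was not called. Without P7 PAB library 2, none of the 3 reached both thresholds, and the log2 fold changes were then -0.55 in Mki67, -0.57 in Cenpf and -0.47 in Kif20b.

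Another 7 members had an adjusted p of at most 0.05 at P7 without reaching the fold threshold. By adjusted p alone 6 members were higher and 7 lower, against 22.8% and 22.1% of all genes. Bub3 was at 57.4, 62.4 and 51.8 CPM in P3 sham, 62.5, 61.7 and 56.2 CPM in P3 PAB, 43.2, 39.4 and 38.4 CPM in P7 sham, and 63.1 and 55.9 CPM in P7 PAB hearts. Its P7 PAB libraries lay above all P7 sham libraries, library 1 above and library 2 within the range of the P3 libraries, with 0.56 ± 0.09 (adjusted p = 0.000173). Pttg1 had 0.55 ± 0.09 (adjusted p = 0.000191) and Ube2c 0.53 ± 0.18. On the lower side were Aspm with -0.55 ± 0.14, Smc4 with -0.49 ± 0.11, Cenpe with -0.40 ± 0.14 and Ckap2l with -0.39 ± 0.15. The difference in Aurkb was within the spread of the libraries, with 0.15 ± 0.15 (adjusted p = 0.463), and its 2 P7 PAB libraries, at 17.9 and 17.8 CPM, lay inside the range of the 3 P7 sham libraries. The 4 passenger complex genes, the 6 motors and 7 of the 8 cytokinesis genes were not called at this age. At P7 9.63% of all genes were called higher and 8.59% lower, so that most genes were not called either. Among these members Incenp had -0.33 and Kif22 had 0.33, with unadjusted p of 0.0482 and 0.0370 in edgeR.

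**Figure D3:**
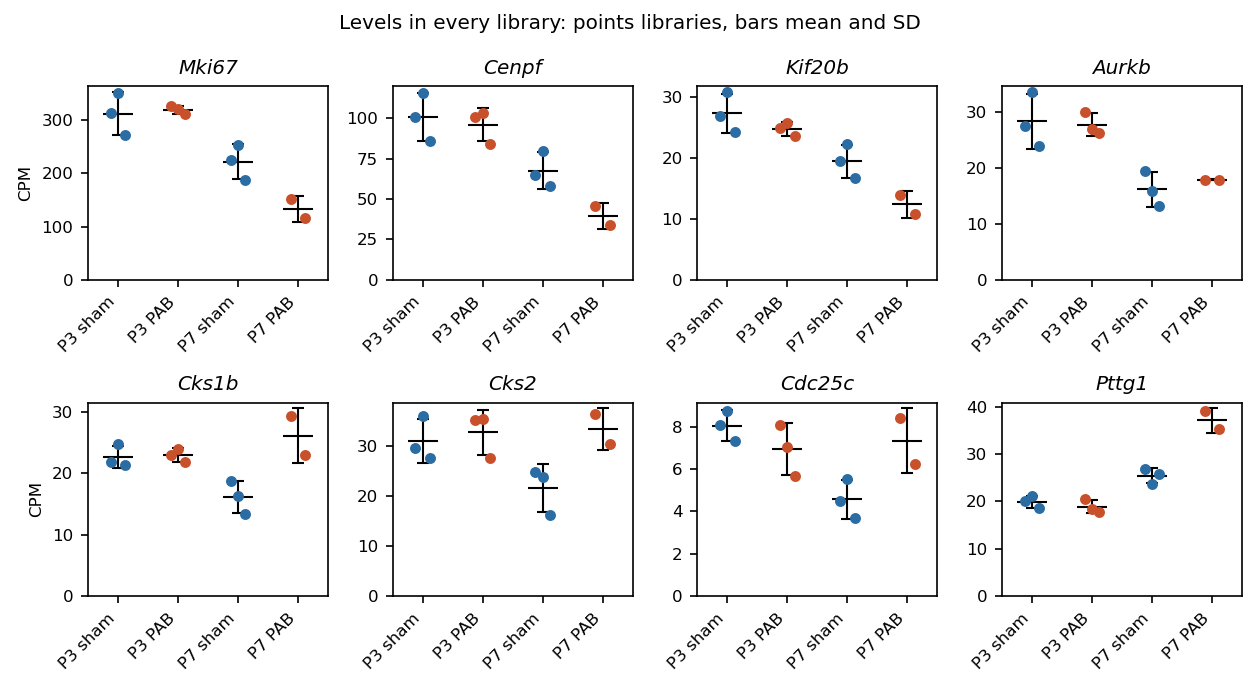
CPM of 8 members in every library (points, blue sham and orange PAB), with group means and SD as bars (n = 3, 3, 3 and 2). Mki67, Cenpf and Kif20b are lowest in P7 PAB hearts, Cks1b, Cks2 and Cdc25c are lowest in P7 sham hearts, Pttg1 is highest in P7 PAB hearts, and Aurkb is at a like level in both P7 groups.

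The direction at P7 went with the length of the gene. Over the 57 members the log2 fold change between P7 PAB and P7 sham hearts had a Spearman correlation of -0.59 with exonic length, and a Pearson correlation of -0.64 with its log2. Of the 27 members shorter than the median of 4919 bases 21 were above 0, and of the 28 longer ones 6 were. Cks2 and Cks1b are the 2 shortest members, with 692 and 1126 bases of exon, and Cenpf, Aspm, Kif15, Kif14 and Mki67 the 5 longest, from 10061 to 15433 bases. Cdc25c, at the median of 4919 bases, was called higher, and Bub3 (7006 bases) was higher but under the fold threshold. These lengths join all annotated exons of a gene and can exceed the length of its transcripts. Over 15600 genes with a length the Spearman correlation at P7 was -0.37, and it was -0.18 at P3. In sham hearts over age it was -0.03 over all genes and over the members, and in PAB hearts over age it was -0.37 over all genes and -0.57 over the members. These correlations are over genes measured in the same libraries and are given as a description. When the trend with length was removed from each library, 2 members were higher at P7, Cdc25c with 0.72 and Bub3 with 0.71. In that fit 0 members were lower, with Mki67 at -0.48 and Cenpf at -0.38. The calls of Cks1b, Cks2 and Kif20b were also lost. Of all genes 6.22% were higher and 7.04% lower in that fit. With age, 39 members were lower in sham hearts after the same removal and 29 in PAB hearts, against 38 and 35 without it and against 5.92% and 7.31% of all genes lower in that fit.

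**Figure D4:**
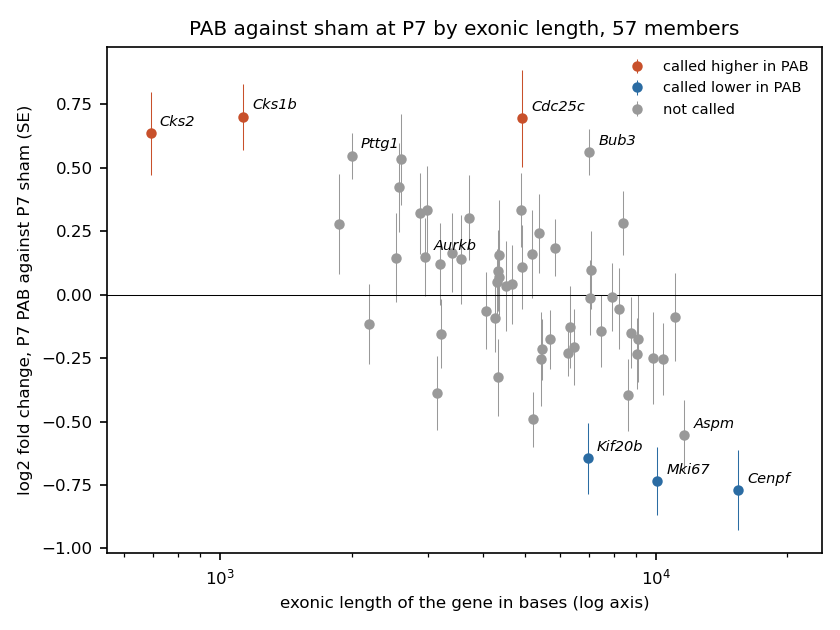
Log2 fold change between P7 PAB and P7 sham hearts with SE (vertical axis) against exonic length in bases (horizontal log axis) for the 57 members, with called members in colour. Short members such as Cks2 and Cks1b lie above 0 and long ones such as Mki67 and Cenpf below.

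Whether the effect of PAB differed between P7 and P3 was tested as the interaction of age and operation. It was above 0 in 4 members and below 0 in 3 at an adjusted p of at most 0.05, against 13.3% and 12.6% of all genes. Above 0 were Cdc25c with 0.91 ± 0.25 (adjusted p = 0.0151), Cks1b with 0.69 ± 0.17, Pttg1 with 0.62 ± 0.12 and Bub3 with 0.49 ± 0.12. Below 0 were Mki67 with -0.77 ± 0.18 (adjusted p = 0.00592), Cenpf with -0.70 ± 0.20 and Kif20b with -0.50 ± 0.18. The calls of Mki67 and Pttg1 held in all 20 settings, and that of Kif20b in 8. Without P7 PAB library 1 there was 1 member above 0 and 6 below, without P7 sham library 1 there were 8 above, and without P7 PAB library 2 or P7 sham library 2 there was 1 below. The comparisons at P7 and over age in sham hearts share the 3 P7 sham libraries, so that their directions are not independent.

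The genes around the members were taken from lists of the cell cycle that do not hold the members. With age in sham hearts 5.73% of all genes fell and 5.62% rose. Among 61 other mitotic genes 36 fell and 0 rose, with a median of -0.62. Of these, Cdc25a, a phosphatase of cell cycle entry, had -0.68, Cit, citron kinase of the contractile ring, -0.86, and Sapcd2, -1.28. DNA replication genes fell in 32 of 47 cases, with a median of -0.67, among them Cdc7, the kinase that fires origins, with -1.09, and the helicase subunits Mcm5 and Mcm3 with -1.06 and -0.80. Among 15 cyclins and Cdk kinases 5 fell, with Ccne1 at -0.99, Ccnf at -1.01 and Ccnb1, the cyclin of mitosis, at -0.88. Among 24 regulators of mitotic transcription 6 fell, including E2f1 (-0.77) and Foxm1, which acts with MuvB at the CHR (-0.77). Among 7 Cdk inhibitors and 10 cohesin genes and septins 0 fell and 0 rose in edgeR, with 2 higher and 2 lower inhibitors and 0 higher and 3 lower cohesin genes and septins at an unadjusted p under 0.05. At P3 between the operation groups 0 genes of these 6 lists were called by edgeR in either direction, with 2 Cdk inhibitors higher and 2 other mitotic genes, 1 cyclin or Cdk kinase and 1 regulator lower at an unadjusted p under 0.05.

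At P7 the lists around the members held calls in both directions, to be read against 9.63% of all genes higher and 8.59% lower. Of 61 other mitotic genes 5 were higher and 4 lower in PAB hearts, with a median of 0.10, and these counts are near the shares of all genes. Zwint and Cenpw, of the kinetochore, had 0.62 and 1.06, and Casc5, the kinetochore scaffold Knl1, -0.92. Of 47 DNA replication genes 5 were higher and 1 was lower, with Rfc3 at 0.67 and the thymidylate synthase Tyms at 0.82. Among the cyclins and Cdk kinases, Cdk1, the kinase that Cks1b and Cks2 bind, was higher with 0.80, Ccnb1 was higher with 0.62 and Ccnd2, a cyclin of G1, was lower with -0.62. Cdk1 is also one of the other mitotic genes, so that its call counts in both lists. Among Cdk inhibitors Cdkn1a (p21) was higher with 0.74 and Cdkn1b (p27) lower with -0.60. Among cohesin genes and septins Nipbl, the cohesin loader, was lower with -1.06 and Smc3 with -0.67. The regulators E2f1 and E2f8 were lower, with -0.66 and -0.64.

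Markers of cell types were read beside these values. With age in sham hearts the erythroid markers had a median of -0.66, with 3 of 11 tested genes lower and 0 higher, so that they moved the same way as the members. Fibroblast markers were higher in 3 of 12 cases with a median of 0.41, macrophage markers in 2 of 12 with a median of 0.36, and endothelial markers were lower in 1 of 12 with a median of 0.21. Cardiomyocyte markers were higher in 1 of 14 with a median of 0.05, smooth muscle and pericyte markers higher in 2 and lower in 1 of 10 with a median of 0.24, and epicardial markers lower in 1 of 8 with a median of -0.40. By the same rule 5.62% of all genes were higher and 5.73% lower with age in sham hearts. At P7, PAB hearts had 1 higher and 1 lower of the 11 erythroid markers, 1 higher and 2 lower of the cardiomyocyte markers, and 3 lower of the fibroblast markers. Of the smooth muscle and pericyte markers 2 were higher and 1 lower, with log2 fold changes up to 2.56, and of the epicardial markers 2 were higher and 1 lower, up to 1.99. There were 2 lower macrophage markers and 1 higher endothelial marker. These counts are to be read against 9.63% of all genes higher and 8.59% lower. The median of the erythroid markers at P7 was 0.33, with 5 of 11 higher in both PAB libraries than in all sham libraries, and the medians of the other lists named here were between -0.16 and 0.01. Which cell types carried the members' transcripts was not tested.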

How the data were processed

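Total RNA of mouse hearts was sequenced by the authors as paired-end reads, aligned to GRCm38 (mm10) with STAR 2.5.2b and the Gencode annotation, and deposited as raw counts per gene, 1 column for each of the 11 libraries. Which tool counted the reads, with which strand setting and Gencode release, is not given in the sources used here. Groups were taken from the labels. The members, their role groups and the other lists were chosen with earlier results of these data known.

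Counts were analysed in R 4.3.3 with edgeR 4.0.16, by filterByExpr, TMM scaling and 1 quasi-likelihood model of the 4 groups (11 libraries). The groups share their estimate of the spread, since only 2 libraries were made of P7 PAB hearts. Adjustment (Benjamini-Hochberg) was over all 15808 genes tested. A call needed a difference of 1.5-fold or more with an adjusted p not above 0.05, and for an interaction that adjusted p alone. The authors' own comparisons used DESeq2 with a p threshold of 0.05 and the same fold. Here DESeq2 1.42.0 was an alternative to edgeR.

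Exonic lengths came from GENCODE M21, which matched 48560 of 50600 names, and promoters from RefSeq (GRCm38.p6). An exonic length counts the bases of all annotated exons of a gene together. Among the names, 27 had been turned into dates, which left 5 septins out of a list. All members are named. Values in every library are given for Mki67 and Aurkb, for the member of each role group with the highest CPM per kb, for members called between PAB and sham hearts or with an interaction (10 at most), and for the 3 highest and the 3 lowest log2 fold changes over age in sham hearts. Genes of other lists are the 3 at most with the lowest p in the comparison described. Depth was 19274045 to 26820228 counts, and the floor of 3 counts covers counting error only. All pairs of replicates differed beyond sampling noise (chi-square per gene 4.27 to 12.6). The steps were tested on simulated data.

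The alternatives were RLE size factors, total count scaling, no filter and a stricter filter on low counts (10 counts or more in all libraries of a group, and a mean count of 50 or more), DESeq2, calls without adjustment of p or without the fold threshold, separate fits of the 2 groups compared, the replicate number as a block, removal of the trend with exonic length in each library (lowess, span 0.3), a term for whether Xist or Ddx3y was higher in a library, and leaving out each library. Figures were drawn with Python and matplotlib.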

Additional observations from a re-analysis of the deposited data

Results flagged for a closer look

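The effect of PAB on 7 members differed between P7 and P3 by a test of the difference itself, the interaction term of edgeR's quasi-likelihood fit, with 4 above 0 against 13.3% of all genes and 3 below 0 against 12.6%. These shares of the members are under those of all genes. The difference of the log2 effects was 0.91 ± 0.25 (SE) in Cdc25c, 0.69 ± 0.17 in Cks1b, 0.62 ± 0.12 in Pttg1 and 0.49 ± 0.12 in Bub3. It was -0.77 ± 0.18 in Mki67, -0.70 ± 0.20 in Cenpf and -0.50 ± 0.18 in Kif20b. The adjusted p of edgeR ranged from 0.00236 in Pttg1 to 0.0492 in Kif20b. At P7 the operation groups also differ in the Xist and Y class of their libraries. A term for that class rests on P3 sham library 1 alone and cannot separate sex from PAB. In that fit Pttg1, Bub3 and Mki67 were called, and the values of the 7 members were between -0.76 and 0.91. No group holds more than 3 libraries, so that single libraries were not tested as outliers.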

How the results depend on the processing

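The absence of calls at P3 between PAB and sham hearts was the same in all 22 alternatives run, and no call changed sign. The fall over age in sham hearts was called in 38 members, and in 23 to 45 when single libraries were left out, lowest without P7 sham library 3. The fall in PAB hearts was called in 35 members and in 21 to 43, lowest without P7 PAB library 2, and its median ranged from -0.80 to -0.51. With total count scaling the median of all genes moved to -0.31 in sham and -0.25 in PAB hearts and that of the members to -0.98 and -0.88. With no fold change threshold 1 member was higher and 53 lower over age in sham hearts, against 16.2% and 16.8% of all genes. At P7 6 members were then higher and 7 lower in PAB hearts, against 22.8% and 22.1% of all genes. At P7 there was 1 higher and 4 lower members and a median of -0.08 with the replicate block, 0 higher and 2 lower with a term for Xist and Y class, and 0 lower with the length trend removed. When single libraries were left out, P7 PAB and sham hearts had 0 to 6 higher and 0 to 6 lower members, with a median of -0.14 to 0.18. Interactions below 0 numbered 5 in DESeq2, 6 by unadjusted p, 7 with the replicate block, 1 with the length trend removed and 1 with the Xist and Y class, with which 2 were above 0. Leaving out single libraries gave 1 to 8 above 0 and 1 to 6 below. The cause of these differences was not tested. Replicate numbers are not stated to mark a shared litter or day, and the correlation of deviations between libraries with the same number was between -0.10 and 0.14 over all genes and between -0.50 and 0.33 over the members. Over the members it was 0.13, 0.30 and 0.33 between P3 sham and P3 PAB libraries. As the pairing was not shown in every pair, the block is given only here, and with it Cdc25c and Cks2 were not called at P7. Where a group of 2 lost a library, the lone library was assumed to vary like the other groups. Of single members, Mki67 at P7 was called in 20 of 22 settings, with an adjusted p of 7.95e-08 to 0.0385, Cks1b in 18, Cks2 in 17, Cdc25c in 18, Cenpf in 19 and Kif20b in 19. With 2 libraries of P7 PAB hearts, smaller differences at P7 may not have been detectable.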
